A study of Mus musculus with 14 samples.

Results

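The genes described here are the Myc family members Mycl, Myc and Mycn and 6 other factors of their network: Max, Mxd1, Mxd4, Mxi1, Mnt and Mlx. They were taken by symbol from the deposited count table and make up 9 of its 33459 gene IDs. The set was selected on the Mycl level, which differed between genotypes in gonadal white adipose tissue (gWAT), so the comparison of genotypes in gWAT is a description of these 9 genes and carries no test for them. The libraries come from C57BL/6 mice, 21 weeks old, kept on high fat diet during their last 8 weeks. FHL2-/- mice, called KO here, lack Fhl2, a protein built of LIM domains that acts as a cofactor in the nucleus and is abundant in heart muscle, and WT mice carry the intact gene. There were 3 KO and 3 WT gWAT libraries, numbered 1, 3 and 4, and 4 KO and 4 WT heart libraries, numbered 1 to 4. The labels give neither the sex of the mice nor the design of the Fhl2 allele, and they do not say that each library is a separate animal, so a p-value here measures the spread between libraries.

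Myc proteins bind DNA as dimers with Max, preferably at the E-box CACGTG, and activate genes of ribosome biogenesis, metabolism and the cell cycle. Mxd1, Mxd4, Mxi1 and Mnt also dimerize with Max and recruit Sin3 co-repressors to the same sites, which makes Max the shared hub of activating and repressing pairs. Mlx is the second hub: it pairs with the glucose-responsive factors MondoA and ChREBP, and also with Mxd1, Mxd4 and Mnt. In cultured preadipocytes Myc is known to block differentiation into fat cells, Mycl is known for its use by mouse dendritic cells, and Mycn is needed in the developing mouse heart.

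Total counts were 15105019 to 16040188 per gWAT library and 10835092 to 13272412 per heart library. Levels are given in CPM, read counts scaled to a common library total with TMM factors over all 14 libraries, and in CPM per kb of exon where different genes are set side by side. Fhl2 averaged 0.316 ± 0.0937 CPM in KO gWAT and 4.39 ± 0.704 CPM in WT gWAT (SD, n = 3 each), and 39.7 ± 4.54 CPM in KO hearts and 1400 ± 206 CPM in WT hearts (SD, n = 4 each). Libraries of a group were not alike in cell markers. WT gWAT replicate 1 had 1260 summed CPM of 8 lipid-associated macrophage markers, against 5460 and 3890 CPM in WT gWAT replicates 3 and 4. Heart replicates 1 and 2 held 3680 to 4800 summed CPM of 4 atrial markers, and replicates 3 and 4 held 104 to 948 CPM, in both genotypes.

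Mycl was the member with the large genotype difference in gWAT. Its level was 18.6, 14.8 and 20.5 CPM in the KO gWAT libraries (replicates 1, 3 and 4), against 5.78, 2.49 and 3.21 CPM in the WT gWAT libraries. Every KO gWAT library lay above every WT gWAT library, and the highest WT value was that of replicate 1. These levels rest on 286 to 394 Mycl reads per KO library and 50 to 101 reads per WT library. Mycl averaged 18 ± 2.87 CPM in KO gWAT and 3.83 ± 1.73 CPM in WT gWAT (SD, n = 3 each), a log2 fold change of 2.25 with a standard error (SE) of 0.28. Leaving out WT replicate 1 gave a log2 fold change of 2.64, and leaving out WT replicate 3 gave 2.02. In bulk tissue, fewer cells of a type and less RNA per cell cannot be told apart.

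Myc, the family's most studied member, ran the other way in mean level, but its groups overlapped. Its level was 8.15, 7.11 and 10.8 CPM in KO gWAT, against 6.41, 17.9 and 14.6 CPM in WT gWAT. WT replicate 1 was the lowest of the 6 libraries, while WT replicates 3 and 4 were the highest. The log2 fold change was −0.59 ± 0.35 (SE) with WT replicate 1 and −0.92 without it. Mycn was near the floor in gWAT, with 4 to 10 reads per KO library and 4 to 6 per WT library (0.214 to 0.520 CPM in KO gWAT and 0.195 to 0.344 CPM in WT gWAT), too few to enter the test.

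**Figure D1:**
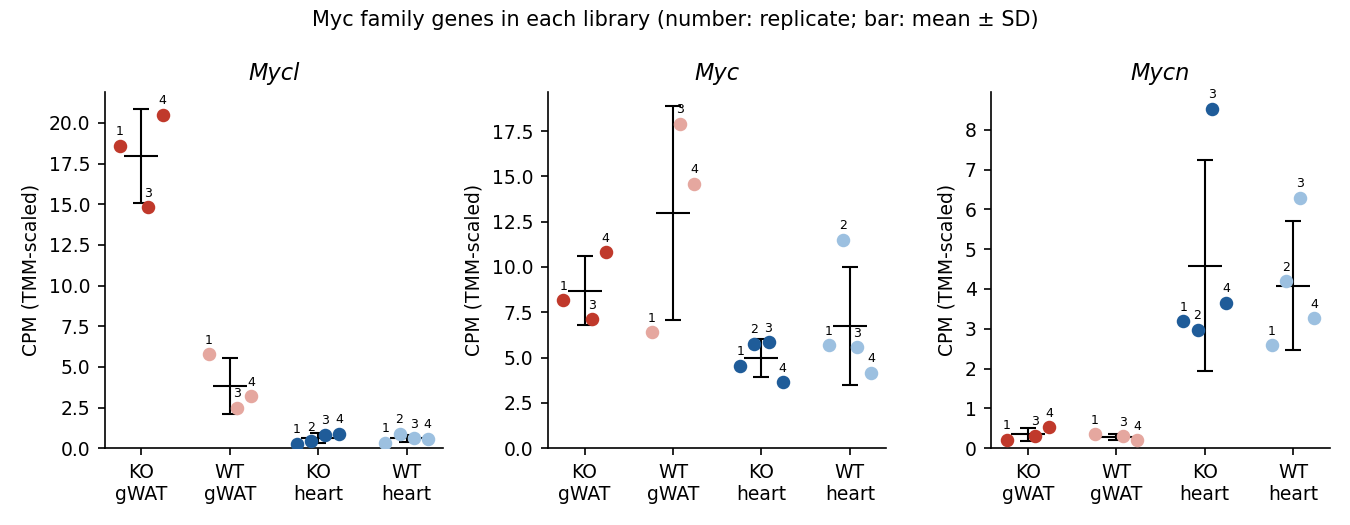
Level of Mycl, Myc and Mycn in CPM (y axis, linear, TMM-scaled) in each KO and WT library of gWAT and heart. Points are libraries with their replicate numbers, and bars are group means ± SD (n = 3 in gWAT, n = 4 in heart). Mycl lies at 14.8 to 20.5 CPM in KO gWAT and at 2.49 to 5.78 CPM in WT gWAT, and under 1 CPM in all hearts, while Mycn is found mainly in heart.

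The make-up of the family's transcripts differed with these values. As a share of the summed CPM per kb of Mycl, Myc and Mycn, Mycl made up 60.1%, 57.5% and 55.2% in KO gWAT, against 36.8%, 8.46% and 12.8% in WT gWAT. Mycl was the largest of the 3 in every KO gWAT library, and Myc was the largest in every WT gWAT library. The sum of the 3 was 7.75 ± 1.4 CPM per kb in KO gWAT and 5.80 ± 1.73 CPM per kb in WT gWAT (SD, n = 3 each), and the ranges of the groups overlapped. Hearts had little Mycl: it was 4.54 ± 2.55% of the family in KO hearts and 3.98 ± 1.11% in WT hearts, where Mycn made up 39.6 ± 9.91% and 33.0 ± 10.9% (SD, n = 4 each).

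**Figure D2:**
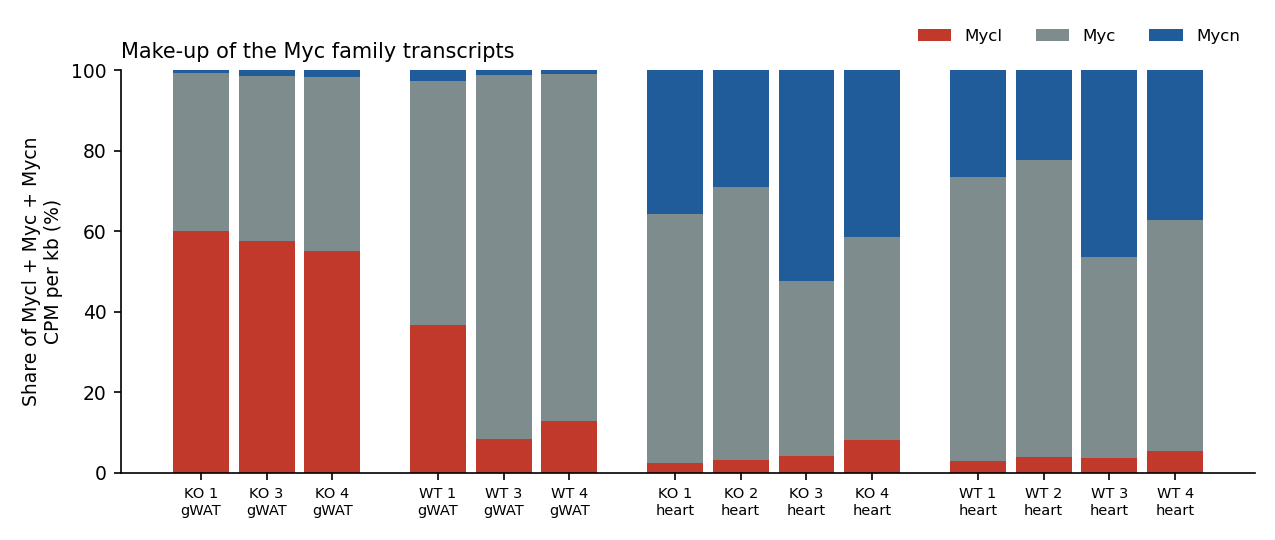
Share of Mycl, Myc and Mycn in the summed CPM per kb of the 3 genes (y axis, percent), 1 bar per library. Mycl takes 55.2% to 60.1% in KO gWAT and 8.46% to 36.8% in WT gWAT, and Mycn is visible mainly in the hearts, where it takes 22.2% to 52.3%.

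Per length, Mxd4, Max and Mlx were the 3 most abundant of the 9 genes in every group. In KO gWAT the order in CPM per kb was Mxd4 (17.9), Max (12.1), Mlx (9.62), Mycl (4.45), Mnt (3.94), Mxi1 (3.70), Myc (3.19), Mxd1 (1.30) and Mycn (0.106). Mycl, Mnt and Mxi1 each overlapped the next gene of this order across the 3 libraries, so neighbours among them and Myc could not be ranked. Mycl was above Myc within every KO gWAT library. In WT gWAT the same first 3 genes led, with Myc next at 4.77, and Mycl stood above Mycn alone at 0.948 CPM per kb, where it overlapped Mxd1 at 1.15. In hearts Max (16.2 in KO and 16.9 in WT) and Mxd4 (14.2 in KO and 14.1 in WT) led and overlapped each other. Mycl was last in hearts, at 0.149 CPM per kb in KO and 0.151 in WT, and did not overlap the gene above it. The 4 repressors Mxd1, Mxd4, Mxi1 and Mnt summed to 26.8 ± 1.93 CPM per kb in KO gWAT and 27.6 ± 0.954 in WT gWAT (SD, n = 3 each), with overlapping ranges.

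**Figure D3:**
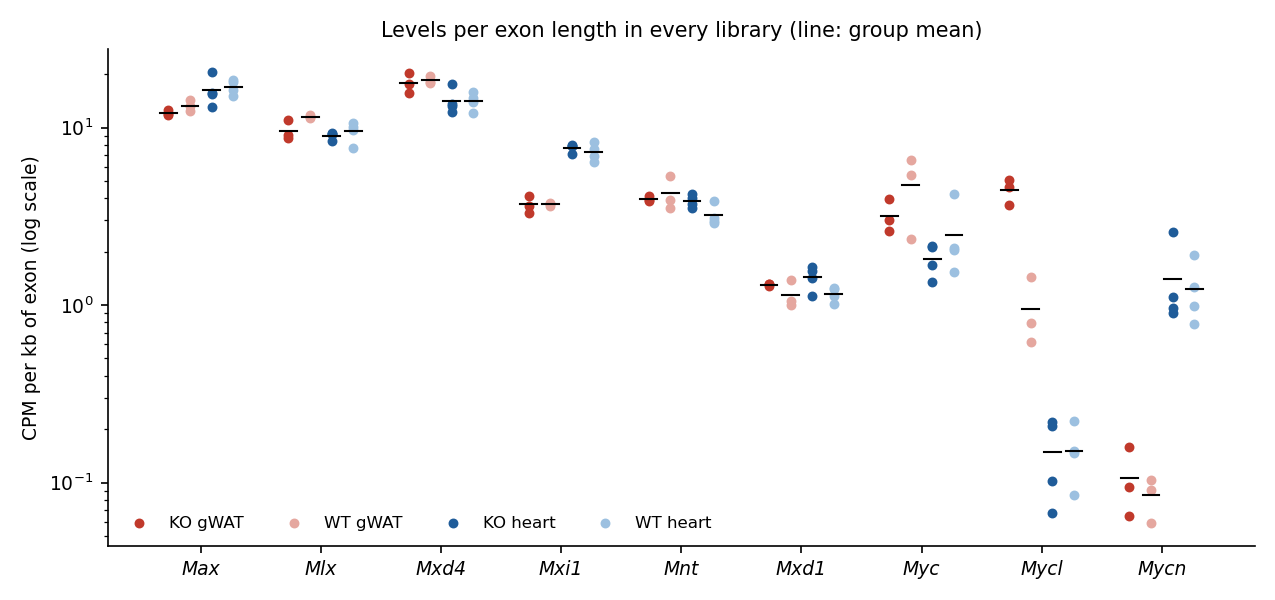
Level of the 9 genes in CPM per kb of exon (y axis, log scale) in each library. Points are libraries, coloured by genotype and tissue, and lines are group means. Mxi1 lies higher in hearts than in gWAT, Mycl spans 0.149 CPM per kb in KO hearts to 4.45 in KO gWAT, and Mycn is the lowest gene in gWAT.

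The members other than Mycl, Myc and Mycn showed small genotype differences in gWAT. Mlx was 22.1, 18.2 and 17.4 CPM in KO gWAT, against 23.1, 22.5 and 23.3 CPM in WT gWAT. All 3 KO libraries were below all 3 WT libraries, with a log2 fold change of −0.26 ± 0.12 (SE). Of the 1999 exon bases of Mlx, 385 overlap Psmc3ip on the other strand, so reads of the 2 genes there cannot be told apart. Mxd4 and Mxi1 share 514 and 194 exon bases with genes on the other strand that had 14 and 2 reads in all libraries together. Max was 45.4, 42.8 and 42.5 CPM in KO gWAT, against 44.7, 51.5 and 47.3 CPM in WT gWAT, and the groups overlapped (−0.14 ± 0.10). The repressors Mxd1 (0.19 ± 0.15), Mxd4 (−0.05 ± 0.12), Mxi1 (0.00 ± 0.12) and Mnt (−0.11 ± 0.17) also overlapped between genotypes, with log2 fold changes and SE as given. Among the 9 genes, 2 had groups that did not overlap, Mycl with KO higher and Mlx with KO lower, beside 12.4% of all 15200 tested genes with every KO library higher and 15.2% with every KO library lower. Of the 8 tested, 1 passed the adjusted p threshold of 0.05 upwards and 0 downwards, beside 2.01% of all tested genes called higher and 3.48% called lower in KO gWAT. Because the choice of genes used this contrast, nothing is read from either count. With KO replicate 1, 3 or 4 or WT replicate 4 left out, 0 members and 0 of all genes were called. Leaving out WT replicate 1 gave 1 member downwards, Myc. Over all genes, leaving out 1 library gave 0 to 1201 called higher and 0 to 1707 called lower. Nothing is read from these member counts either.

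Promoters of the members are shown because Max dimers bind CACGTG, a site that reads the same on both strands. Sequences are RefSeq windows on GRCm38.p6 that run from 250 bases before to 50 after the start. Windows were found for 8 of the 9 genes, 3 of them for Mxi1, and 4 genes had the site: Max, Mxd4, Mnt and Mlx. Mycl, Mycn, Mxd1 and Mxi1 did not have these letters in their windows. Of all 32851 windows, 7.15% held it. The stretches read 5′ to 3′ on the gene's strand with CACGTG in capitals, and the site's first base is at −3 (Max), −219 (Mxd4), −123 (Mnt) and −40 (Mlx) from the start. The last 100 bases before the RefSeq start of Mycl are given beside them, with none in capitals. That start lies inside the Mycl span given below, so bases before the start of the span were not searched.
Max, chr12:76962246-76962276, minus strand: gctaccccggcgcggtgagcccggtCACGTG
Mxd4, chr5:34187899-34187954, minus strand: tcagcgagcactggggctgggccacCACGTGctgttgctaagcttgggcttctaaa
Mnt, chr11:74830776-74830831, plus strand: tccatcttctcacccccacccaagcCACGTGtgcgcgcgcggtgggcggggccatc
Mlx, chr11:101087225-101087280, plus strand: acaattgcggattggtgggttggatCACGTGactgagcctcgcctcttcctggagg
Mycl, chr4:122995831-122995930, plus strand: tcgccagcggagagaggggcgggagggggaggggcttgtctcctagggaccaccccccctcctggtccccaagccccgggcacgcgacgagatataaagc
A match to these letters is a description of the window, not a measured binding site.

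The 9 genes lie on 7 chromosomes, and none is on the chromosome of Fhl2. Mycl spans chr4:122995652-123002485 on the plus strand of GRCm38, with 4038 exon bases. Within 250 kb of it, 13 other genes were annotated, of which 5 were tested in gWAT and 0 were called by edgeR. The nearest tested neighbour, Trit1, which modifies transfer RNA, had a log2 fold change of 0.49 ± 0.14 (SE, adjusted p = 0.074 by edgeR), and Cap1, an actin regulator, had −0.52 ± 0.16 (adjusted p = 0.0999 by edgeR).

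In hearts no member differed between genotypes at the threshold. Mycl was 0.273, 0.411, 0.834 and 0.889 CPM in KO hearts (replicates 1 to 4), against 0.344, 0.892, 0.608 and 0.594 CPM in WT hearts. These values rest on 3 to 10 reads per library, and the groups overlapped entirely. The means were 0.602 ± 0.306 CPM in KO hearts and 0.610 ± 0.224 CPM in WT hearts (SD, n = 4 each; exact permutation test, two-sided, p = 0.971, with 0.0286 the smallest p of the 70 arrangements). At so few reads a small difference would not be detectable. Myc was 4.56, 5.76, 5.84 and 3.65 CPM in KO hearts, against 5.68, 11.5, 5.58 and 4.16 CPM in WT hearts. Its log2 fold change was −0.45 ± 0.30 (SE) with all libraries and −0.06 without WT replicate 2, the highest library.

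Mycn, the family member of the developing heart, was 3.19, 2.98, 8.53 and 3.65 CPM in KO hearts, against 2.58, 4.19, 6.29 and 3.27 CPM in WT hearts. Replicate 3 was the highest library in both genotypes, and the fold change was 0.18 ± 0.38 on the log2 scale. It was −0.31 without KO replicate 3. The repressors Mnt and Mxd1 were the members with the smallest p in heart. Mnt was 19.5, 17.3, 18.4 and 16.4 CPM in KO hearts, against 14.3, 13.8, 17.8 and 13.5 CPM in WT hearts, so 14 of 16 KO and WT pairs had the KO library higher. Mxd1 was 10.9, 11.6, 10 and 8.0 CPM in KO hearts, against 8.69, 7.94, 8.82 and 7.13 CPM in WT hearts, again with 14 of 16 pairs higher in KO. The log2 fold changes were 0.27 ± 0.11 for Mnt and 0.31 ± 0.14 for Mxd1, and by edgeR the unadjusted p was 0.0357 and 0.0479 while the adjusted p was 1 for both. Among equally numbered hearts, KO was above WT in 4 of 4 for both genes, though the labels do not name such hearts as pairs. When edgeR took the replicate number as a block, the adjusted p was 0.806 for Mnt and 0.881 for Mxd1.

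Max (−0.07 ± 0.13), Mxd4 (0.00 ± 0.12), Mxi1 (0.08 ± 0.09) and Mlx (−0.08 ± 0.11) had small log2 fold changes in heart. Of the 8 members tested in heart, 0 were called by edgeR and 0 by DESeq2, beside 0% of all 14159 genes called higher and 0.00706% called lower, a single gene. At an unadjusted p under 0.05 there were 2 of 8, beside 3.2% of all genes. With the heart libraries fitted with the atrial marker level as a covariate, or within replicates 1 and 2 or 3 and 4, 0 members were called.

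**Figure D4:**
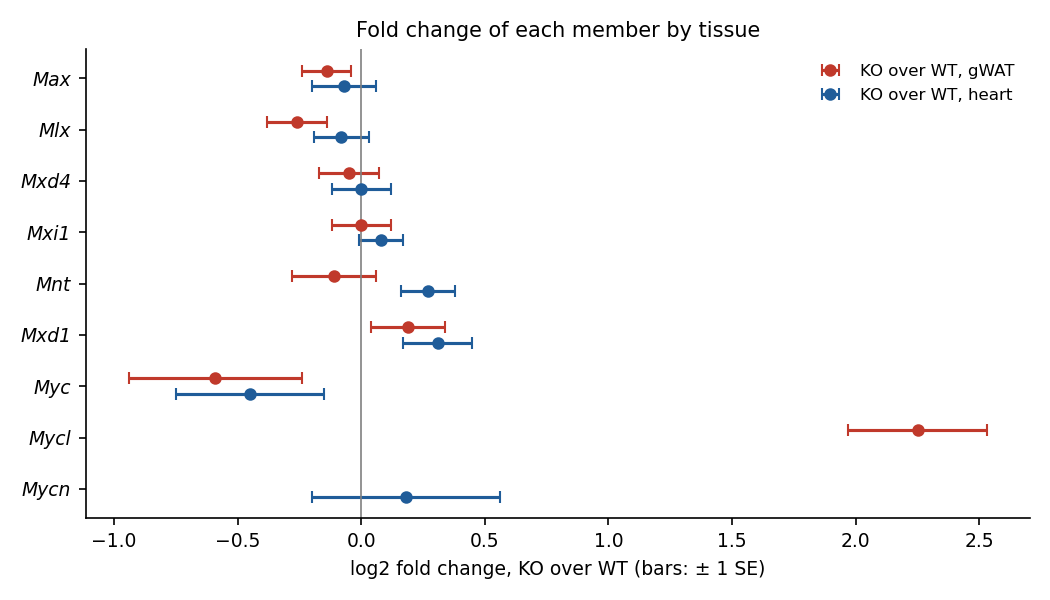
Log2 fold change of KO over WT for each gene (x axis, bars ± 1 SE) in gWAT and in heart, from separate edgeR fits of each tissue. Mycl in gWAT stands at 2.25, and all other values lie between −0.59 and 0.31. Mycn in gWAT and Mycl in heart had too few reads for the fit.

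The contrasts between tissues use the same gWAT libraries in which Mycl was chosen, so Mycl is described there without a test. In WT mice, Mycl was 3.83 ± 1.73 CPM in gWAT (SD, n = 3) and 0.610 ± 0.224 CPM in heart (SD, n = 4), a log2 fold change of 2.63 ± 0.37 (SE). Each gWAT library was above each heart library. In KO mice the gWAT over heart difference of Mycl was 4.88 ± 0.35 on the log2 scale. Mycn had the reverse pattern, with 0.279 ± 0.0763 CPM in WT gWAT (SD, n = 3) and 4.08 ± 1.61 CPM in WT hearts (SD, n = 4), a log2 fold change of −3.84 ± 0.51 (adjusted p = 6.03e-06 by edgeR). In KO mice it was −3.68 ± 0.49 (adjusted p = 6.82e-06 by edgeR). The repressor Mxi1 was at 25.2 ± 0.484 CPM in WT gWAT and 49.8 ± 5.37 CPM in WT hearts, and 25.2 ± 2.81 CPM in KO gWAT and 52.5 ± 2.84 CPM in KO hearts. Its log2 fold change was −0.98 ± 0.10 in WT and −1.06 ± 0.10 in KO (adjusted p = 3.61e-07 and 1.72e-07 by edgeR). Mycn and Mxi1 passed the threshold under all 20 alternatives run for either genotype.

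Of the 9 members, 5 were called higher and 3 lower in WT gWAT than in WT hearts, beside 36.6% and 33.9% of all 16014 genes. In KO mice 2 were called higher and 3 lower, beside 34.8% and 33.6%. Both counts of higher calls include Mycl, from which nothing is read. The shares over all genes are high, so a tissue difference is not particular to the members. Besides Mycl, the members called higher in WT gWAT were Myc (0.94 ± 0.34), Mxd4 (0.39 ± 0.13), Mnt (0.41 ± 0.14) and Mlx (0.27 ± 0.11), with adjusted p between 0.0123 and 0.0422 by edgeR. The call of Myc was lost without WT gWAT replicate 3 or 4 or without WT heart replicate 1, 3 or 4 (highest adjusted p 0.123), that of Mnt without WT gWAT replicate 3 (adjusted p = 0.12), and that of Mlx in 8 of the 14 fits that left out 1 library (highest adjusted p 0.14), all by edgeR. With WT libraries only, the calls of Myc, Mnt and Mlx were also lost. That of Mlx was lost too with RLE scaling, with DESeq2 and with the replicate block. In KO mice Mxd4 was the other member called higher (0.33 ± 0.13, adjusted p = 0.0305 by edgeR). That call was lost without KO gWAT replicate 1 or 4 or without KO heart replicate 2, 3 or 4 (highest adjusted p 0.152 by edgeR). It was also lost with KO libraries only (adjusted p = 0.054 by edgeR).

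Myc in KO mice was close to the threshold. It averaged 8.68 ± 1.88 CPM in KO gWAT (SD, n = 3) and 4.95 ± 1.05 CPM in KO hearts (SD, n = 4), and every KO gWAT library was above every KO heart library. The log2 fold change was 0.81 ± 0.35 (SE, adjusted p = 0.0538 by edgeR). It was called under some of the 20 alternatives, among them DESeq2 (adjusted p = 0.0387) and edgeR with no filter (0.00873). It was also called by edgeR with KO libraries alone (0.00501) and with a block for the replicate number (log2 fold change 1.02, adjusted p = 0.0121). Others did not call it, among them edgeR with RLE scaling (0.0529) and edgeR without KO gWAT replicate 4 (0.182).

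Max, the shared partner, was called lower in gWAT in both genotypes (−0.35 ± 0.13 in WT and −0.42 ± 0.13 in KO, adjusted p = 0.0232 and 0.00895 by edgeR), and the sign of these values depended on the scaling. With library totals in place of TMM, the median gene shifted to 0.61 in WT and 0.49 in KO, and Max moved to 0.23 and 0.06. Relative to the median gene, Max was at −0.38 in WT and −0.43 in KO under both scalings. The WT call of Max was also lost without WT gWAT replicate 1 or 4 or WT heart replicate 1 or 2 (highest adjusted p 0.0725 by edgeR). With no filter it was lost too (adjusted p = 0.0585 by edgeR). Mxd1 did not pass in either genotype (−0.01 ± 0.15 in WT and −0.14 ± 0.15 in KO), and with library totals its WT value was 0.55 (adjusted p = 0.00502 by edgeR), under that median of 0.61. With library totals, 9070 genes were called higher and 3121 lower in WT gWAT, against 5869 and 5426 with TMM. In KO gWAT the counts were 8436 and 3235, against 5567 and 5374 with TMM.

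The genotype difference of Mycl in gWAT exceeded that in heart by 2.26 ± 0.58 on the log2 scale (SE, 14 libraries in 1 fit), a value that includes the gWAT contrast and is given without a test. For the other members this difference ran from −0.38 ± 0.19 (Mnt) to 0.15 ± 0.72 (Mycn).

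Cell markers also differed between genotypes in gWAT, some lists higher and some lower in KO, and others overlapping. Summed lipid-associated macrophage markers were 595 to 673 CPM in KO gWAT, against 1260 to 5460 CPM in WT gWAT, and all 8 genes of that list were called lower by edgeR. Of 6 genes of dividing cells, all were called lower, at 42.5 to 48.8 summed CPM in KO gWAT and 110 to 197 CPM in WT gWAT. Adipocyte markers summed to 25000 to 28200 CPM in KO gWAT and 17500 to 27300 CPM in WT gWAT, with 2 of 9 called higher. Mesothelial markers summed to 251 to 419 CPM in KO gWAT and 91.6 to 203 CPM in WT gWAT, with 3 of 6 called higher. Dendritic cell markers summed to 60.1 to 69.3 CPM in KO gWAT, against 67.0 to 92.2 CPM in WT gWAT, with 0 of 10 called higher and 1 called lower. None of the markers of these 5 lists was at 0 in either genotype. Outside them, general macrophage markers summed to 766 to 880 CPM in KO gWAT and 812 to 1300 CPM in WT gWAT. Of those 7 genes, 1 was called higher and 2 lower. Neutrophil markers summed to 3.53 to 5.04 CPM in KO gWAT and 6.72 to 18.6 CPM in WT gWAT. Of those 4 genes, 1 had enough reads to be tested and 0 were called, and Ly6g was at 0 in gWAT. WT replicate 1 was the WT library with the most Mycl and the least Myc, lipid-associated macrophage and dividing-cell signal. It also had the most adipocyte, mesothelial and neutrophil signal of the WT libraries, and the least dendritic cell and general macrophage signal. The part of these cell types in the Mycl and Myc values was not tested.

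The wider network was described with 8 gene lists that exclude the 9 members. In gWAT, 98 of their 99 genes were tested, and 2 rose and 10 fell in KO, beside 2.01% of all genes called higher and 3.48% called lower, which is also the background of the list counts that follow. The other network proteins Mxd3, Mga, Mlxip and Mlxipl had 0 calls of 4, a median log2 fold change of −0.15 and 0 genes at an unadjusted p under 0.05. DESeq2 called 0 as well. The 16 chromatin partners, among them Trrap, Wdr5 and Sin3a, had 0 calls by edgeR and by DESeq2 and a median of −0.05, with 3 at an unadjusted p under 0.05, beside 23.1% of all genes. Ncor1, a co-repressor, had a log2 fold change of 0.27 ± 0.10 (SE, adjusted p = 0.158 by edgeR). The median over all tested genes was 0.

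Among 10 proteins that set Myc stability, 2 fell in KO gWAT and 0 rose. Cip2a, an inhibitor of a phosphatase that destabilizes Myc, averaged 2.51 ± 0.558 CPM in KO gWAT and 6.39 ± 0.367 CPM in WT gWAT (SD, n = 3 each), a log2 fold change of −1.34 ± 0.21 (adjusted p = 0.0253 by edgeR). Aurka, a mitotic kinase that stabilizes Mycn, averaged 1.82 ± 0.399 CPM in KO gWAT and 5.60 ± 2.09 CPM in WT gWAT (−1.63 ± 0.34, adjusted p = 0.0371). Skp2, a ubiquitin ligase subunit, had −1.0 ± 0.33 and did not pass (adjusted p = 0.12). Cip2a, Aurka and Skp2 are also expressed with cell division, whose markers were lower in KO gWAT. The part of dividing cells in the values of these 3 genes was not tested. Stub1, a ubiquitin ligase, had −0.21 ± 0.10 (adjusted p = 0.246).

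Textbook Myc-activated genes were lower rather than higher in KO gWAT where they passed the test. Of 52 tested in 3 lists, 0 rose and 7 fell, and the median log2 fold change was −0.27. Cell cycle genes had 4 calls of 12, all lower, with a median of −0.57. Mcm5, a subunit of the replicative helicase, was 5.77, 6.81 and 7.53 CPM in KO gWAT in ascending order, against 11.4, 18.7 and 19.6 CPM in WT gWAT (−1.31 ± 0.23, adjusted p = 0.0271 by edgeR). Cdk6 (−1.01 ± 0.19), Ccnd1 (−0.89 ± 0.18) and Ccne1 (−0.73 ± 0.17), a kinase and 2 cyclins of the G1 phase, had adjusted p between 0.0287 and 0.0439. Metabolic genes had 3 calls of 17, all lower, with a median of −0.17. Mthfd2, a mitochondrial folate enzyme, was 6.76, 7.17 and 7.34 CPM in KO gWAT in ascending order, against 13.9, 15.3 and 15.7 CPM in WT gWAT (−1.08 ± 0.13, adjusted p = 0.0156 by edgeR). Slc7a5, an importer of large amino acids, averaged 4.51 ± 0.503 CPM in KO gWAT and 9.87 ± 0.873 CPM in WT gWAT (SD, n = 3 each; −1.13 ± 0.16, adjusted p = 0.0216), and Pkm, a glycolytic enzyme, fell by 0.55 (SE 0.12, adjusted p = 0.0452). The lists do not separate the targets of Mycl from those of Myc.

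The 23 genes of ribosome biogenesis had 0 calls in gWAT by edgeR and by DESeq2, although 21 had negative values. Their median was −0.25, and 8 of 23 were at an unadjusted p under 0.05, beside 23.1% of all genes. Bop1, which helps to process ribosomal RNA, had the smallest p in the list (−0.35 ± 0.10, adjusted p = 0.0863 by edgeR). Of 6 Myc-repressed genes, 1 rose: Ndrg1, a growth-arrest gene, averaged 93.9 ± 7.91 CPM in KO gWAT and 59.9 ± 4.2 CPM in WT gWAT (SD, n = 3 each; 0.65 ± 0.11, adjusted p = 0.0268 by edgeR). The cell cycle inhibitor Cdkn2b had the opposite sign and did not pass (−0.58 ± 0.15, adjusted p = 0.0611). Of 10 tested targets of MondoA and ChREBP, the partners of Mlx, 1 rose and 1 fell. Txnip, an inhibitor of glucose uptake, averaged 1320 ± 116 CPM in KO gWAT and 818 ± 91.6 CPM in WT gWAT (0.69 ± 0.15, adjusted p = 0.038), and Gpd1, a glycerol phosphate enzyme, averaged 865 ± 113 CPM in KO gWAT and 1430 ± 211 CPM in WT gWAT (−0.72 ± 0.16, adjusted p = 0.0427).

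The gWAT list calls depended on single libraries. Without KO replicate 1, 3 or 4, or without WT replicate 4, no gene of any list was called, and over all genes 0 were called. Without WT replicate 1, 8 cell cycle genes, 5 metabolic genes and 4 genes of ribosome biogenesis were called lower. In the same fit 3 of the proteins that set Myc stability and 2 chromatin partners were called lower, and of the targets of MondoA and ChREBP 4 were called higher and 3 lower. Without WT replicate 3, 0 cell cycle genes, 2 metabolic genes and 0 genes of ribosome biogenesis were called lower.

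In heart, 0 of 93 tested genes in the 8 lists were called by edgeR, and list medians lay between −0.08 and 0.00, beside a median of 0 over all genes. At an unadjusted p under 0.05 there were 4 of 93, beside 3.2% of all genes. DESeq2 called 1, Mthfd2. Mthfd2 averaged 14.3 ± 2.18 CPM in KO hearts and 7.75 ± 1.12 CPM in WT hearts (SD, n = 4 each), and every KO library was above every WT library. Its edgeR log2 fold change was 0.88 ± 0.14 (SE, adjusted p = 0.6). The adjusted p was 0.00435 by DESeq2 and 0.0364 by edgeR with no filter on low counts. It was 0.0292 by edgeR with replicate numbers 1 and 2 against 3 and 4 as a covariate. Of the 18 alternatives run in heart, no other called Mthfd2. The genotype difference in gWAT minus that in heart passed the threshold for 0 list genes upwards and 4 downwards of 97, beside 0.362% and 0.787% of all genes. They were Mthfd2 (−1.96 ± 0.19, adjusted p = 0.000651), Slc7a5 (−1.57 ± 0.26, adjusted p = 0.0218), Cdk6 (−1.21 ± 0.22, adjusted p = 0.0262) and Cip2a (−1.33 ± 0.27, adjusted p = 0.0334), all by the interaction contrast in edgeR.

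**Figure D5:**
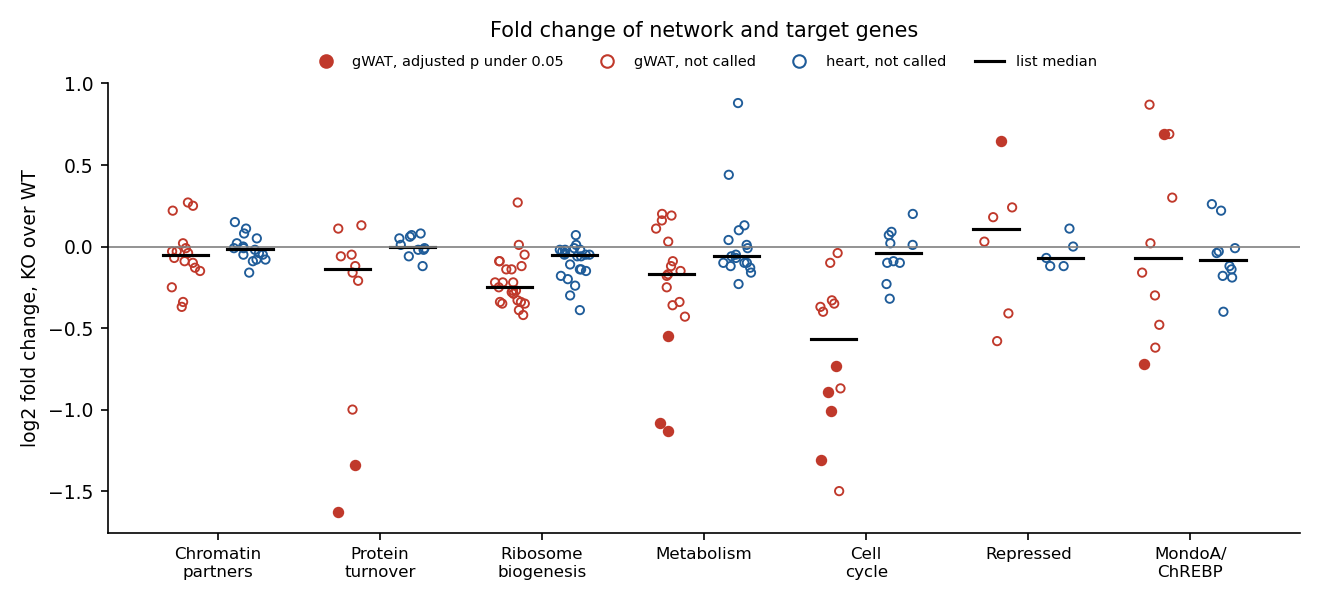
Log2 fold change of KO over WT (y axis) for the genes of 7 lists in gWAT (red) and heart (blue). Each circle is a gene, filled where edgeR's adjusted p was under 0.05, and black lines are list medians. In gWAT the cell cycle list sits lowest, with a median of −0.57, and in heart no circle is filled.

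The E-box CACGTG was found in the windows of 5 of 19 genes of ribosome biogenesis, 3 of 13 metabolic genes, 3 of 9 cell cycle genes, 0 of 5 Myc-repressed genes and 1 of 9 targets of MondoA and ChREBP that had a window. Over all 27025 genes with a window the share was 8.09%. Of the 12 list genes called in gWAT, Cdk6 had a window with the site.

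The genes whose log2 CPM followed Mycl most closely over the 14 libraries, among 11828 compared, were Ebf1, an adipocyte transcription factor (Pearson r = 0.977), Man2a2, a mannosidase of the Golgi (0.977), Sav1, a Hippo pathway scaffold (0.976), Acot4, an acyl-CoA thioesterase (0.973), and Fbxo45, a ubiquitin ligase subunit (0.973). Ebf1 averaged 146 ± 14.9 CPM in KO gWAT and 90.9 ± 9.95 CPM in WT gWAT (SD, n = 3 each), and 38.0 ± 4.50 CPM in KO hearts and 35.7 ± 1.67 CPM in WT hearts (SD, n = 4 each). The 14 points of such an r share the differences between the 4 groups. Over deviations from the 4 group means, the closest were Zfp322a (0.917), Mmd (0.896), Eif2s1 (0.887), B3galt2 (0.881) and Sntb1 (0.880). Mycn was not compared, because its mean level was under the cut-off for r. Among the other members, r with Mycl over the 14 libraries was lowest for Mxi1 (−0.885) and Max (−0.830). Both were lower in gWAT than in heart under TMM scaling.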

How the data were processed

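The deposited table holds the authors' raw read counts, whole numbers per Ensembl gene and library with no normalization. Of its 33459 IDs, 33406 carry a symbol. Per the labels' protocols, RNA came from frozen tissue by Trizol, and the Kapa mRNA HyperPrep kit served for the libraries. HTSeq 0.11.0, HISAT2 2.1.0, Trimmomatic 0.32, limma, Picard and FastQC are listed by the submitters' processing notes with the build mm10, without the step each served. Not given in the sources used here are the annotation release and the strand setting of the counting, so overlapping genes are uncertain. Exon lengths and positions are from GENCODE M21 on GRCm38, and promoter windows are from RefSeq.

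Genes were filtered with filterByExpr, scaled with TMM and tested with the quasi-likelihood F test of edgeR 4.0.16 in R 4.3.3, with p-values adjusted by Benjamini-Hochberg over the genes tested (15200 in gWAT, 14159 in heart and 16014 in the fit of all 14 libraries) and a threshold of 0.05. KO and WT were compared within each tissue, and tissues and the interaction in the fit of 14 libraries. The SE of a fold change is the absolute log2 value over the root of F. DESeq2 1.42.0, RLE scaling, no filter, the replicate number as a block, other sets of libraries in the fit and leaving out each library were the alternatives. Library totals without scaling factors, an atrial marker covariate and a covariate or split by replicate numbers in heart were added after the data were seen. The edgeR steps were tested on simulated data. Within groups, 18 pairs of libraries had chi-square values of at least 3.74 per degree of freedom, so none counted as a duplicate.

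Deviations of equally numbered KO and WT hearts from their group means correlated at 0.238, 0.379, 0.381 and 0.210 (numbers 1 to 4). For numbers 2 and 4, a differently numbered heart correlated higher (0.47 and 0.331), so these values do not settle the pairing. In both genotypes, hearts 1 and 2 also held more atrial marker signal than the other hearts. The part of that signal in the correlations was not tested. The numbers were read as pairs in heart for the block only. For the block, which changed no call among the members in heart, the pairing is an assumption that the labels do not give.

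The members and lists were chosen with earlier results of these data known. The text names all 9 members, up to 4 genes with the smallest p in each list and tissue, and the 5 genes closest to Mycl by each of 2 measures of r (log2 CPM with a prior count of 2, mean above 1, predicted genes left out). Other list genes are given as counts, and neighbours of Mycl and overlapping genes were named after their values were seen. The confidence of single values rests on read numbers as printed, which cover counting error only.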

Additional observations from a re-analysis of the deposited data

Results flagged for a closer look

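In 18 sets of 4 heart libraries (9 genes in 2 genotypes), a library was searched for that stood far from the other 3 of its group. Mycn in KO hearts had 1, replicate 3 at 8.53 CPM, beside 2.98 to 3.65 CPM in the other 3. Replicate 3 was also the highest WT heart, at 6.29 CPM. KO heart replicate 3 had 1760 summed CPM of red blood cell markers, beside 569 to 830 CPM in the other KO hearts. Among WT hearts, replicate 3 had 465 CPM of these markers. WT heart replicate 2, with Mycn at 4.19 CPM, had 1460 CPM of them. The part of red blood cells in the Mycn values was not tested. Mxi1 in KO hearts had the other, replicate 2 at 48.3 CPM, beside 53.5 to 54.5 CPM. Chance marks about 1 in 20 such sets.

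The genotype difference in gWAT minus that in heart passed the edgeR threshold for 4 list genes. For Mthfd2 it was −1.96 (adjusted p = 0.000651), with a log2 fold change of −1.08 in gWAT and 0.88 in heart. For Slc7a5 it was −1.57 (adjusted p = 0.0218), with −1.13 in gWAT and 0.44 in heart. For Cdk6 it was −1.21 (adjusted p = 0.0262), with −1.01 in gWAT and 0.20 in heart. For Cip2a it was −1.33 (adjusted p = 0.0334), with −1.34 in gWAT. In heart edgeR called none of the 4.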

How the results depend on the processing

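The Mycl log2 fold change in gWAT kept its sign under all 12 alternatives (2.02 to 2.64). The number of called genes did not hold. Over all genes in gWAT, 305 were called higher and 529 lower, against 585 and 1015 with no filter, 671 and 1098 with DESeq2, and 583 and 1142 in the fit of 14 libraries. Leaving out 1 library gave 0 to 1201 higher and 0 to 1707 lower, and 0 to 1 member in each direction. With the replicate number as a block, 0 genes and 0 members were called higher and 0 genes lower in gWAT, where equal numbers correlated at −0.112, −0.227 and 0.046, so they were not read as pairs. The block changed no call among the members in heart, where 0 members were called under any alternative. Over all heart genes the higher calls were 2 with no filter, 1 with DESeq2, 1 with the covariate for numbers and 16 in replicates 3 and 4 only, and the lower calls were 8 with the atrial covariate.

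For gWAT against heart, library totals gave 9070 higher and 3121 lower in WT and 8436 and 3235 in KO, and reversed Max to 0.23 in WT and 0.06 in KO and Mxd1 to 0.55 in WT, all below the shifted medians of 0.61 in WT and 0.49 in KO. Members called higher in WT numbered 2 in the fit of WT libraries only and 2 to 5 when 1 library was left out. In KO they numbered 5 with library totals and 1 to 3 when 1 library was left out. With the block, 4 members were called higher in WT and 3 in KO. The cause of these shifts was not tested. Mycl in heart and Mycn in gWAT had at most 10 reads in any library, at which small differences would not be detectable.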
